A study of Bassia scoparia with 27 samples.

Results

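Early light-induced protein 1 (ELIP1) is represented in kochia (Bassia scoparia) by 3 transcripts among the 45517 with a normalized count. They were taken because the study's tables for line 9425, and for the pair also those for J01-S, describe them as ELIP1: Bs.00g421070.m01 and Bs.00g420960.m01 on chromosome 5, called here the chromosome 5 pair, and Bs.00g268300.m01 on chromosome 7, called here the chromosome 7 copy. All 3 passed the filter on low values. Those tables hold the transcripts with the strongest changes in these same libraries. The chromosome 5 pair was tabulated among the most lowered transcripts at 3 h after treatment in all 3 lines, and the chromosome 7 copy among those of line 9425 at 3 and 10 h. The falls in those comparisons are what brought the transcripts in, so their values and tests describe the choice and are no independent evidence. The J01-S table lists the pair at 3 h with treated means of 129 and 114. These equal the 10 h means of J01-S in the values used here, where the 3 h means are 9.0 and 5.5. The J01-S fall of the pair at 10 h is therefore read in the same way. The Flur-R table describes the pair as chlorophyll a-b binding protein instead. The study's text gives the lowering of the pair as unique to both susceptible lines, although the Flur-R table also lists it at 3 h. The gene models used here carry no descriptions, so the ELIP1 name was not checked against a protein sequence.

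Early light-induced proteins are nuclear-encoded proteins of the chloroplast thylakoid membrane and are relatives of the chlorophyll a/b-binding antenna proteins. In Arabidopsis and pea their transcripts appear briefly when seedlings green and when leaves meet strong or cold light, and the proteins are thought to hold free chlorophyll and limit photooxidative damage. Their transcripts also follow the daily clock in several plants.

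The study asked how a kochia line that survives fluroxypyr, a herbicide that mimics auxin, differs from lines that do not. Flur-R, labelled B3, is the resistant line, a cross-pollinated field population from Colorado selected over generations for survival of the herbicide. Line 9425 is inbred, resistant to dicamba through a homozygous mutation in IAA16 and susceptible to fluroxypyr, and J01-S, labelled J01, is a susceptible field population. Untreated tissue was taken from water-sprayed plants 24 h before fluroxypyr was applied, and the same plants were sampled at 3 and 10 h after treatment (HAT) at the labelled field rate. There were 3 libraries of untreated tissue, 3 of 3 HAT and 4 of 10 HAT for Flur-R, as for line 9425, whereas J01-S had 2, 2 and 3. Replicate numbers are plant numbers within a line. The labels call the tissue meristem and young leaves, and the methods describe the youngest fully expanded leaves at the shoot tip. Meristem markers were not checked, and the chlorophyll a-b binding transcript Bs.00g240870.m01, taken as the mark of green leaf, had a mean of at least 389614 in every untreated group. No plant was sampled untreated at 3 or 10 h and the hour of sampling is not given in the sources used here. The herbicide, the time of day, the further day of age and the earlier sampling of the same plants therefore cannot be told apart. In bulk tissue, fewer cells of a type and less RNA per cell cannot be told apart either.

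Library totals of normalized counts spanned 59.4 to 76.9 M before treatment, 60.0 to 75.6 M at 3 HAT and 50.9 to 61.3 M at 10 HAT. The line of each 10 HAT library of 9425 and J01-S was checked on 619 transcripts that part these lines in the other libraries. The library labelled J01-S 10 HAT replicate 3 lay on the 9425 side for 99.0% of them and the library labelled 9425 10 HAT replicate 3 for only 35.7%. The library labelled J01-S 10 HAT replicate 2 lay there for 24.2%, J01-S replicate 4 for 0.646% and the other 9425 libraries for 99.4 to 99.8%. Both replicate 3 libraries, called here the libraries in doubt, were used as labelled. The limma tests of the ELIP1 transcripts at 10 HAT in these lines are given with and without them. Group means, ranges and the values of other genes include both replicate 3 libraries. The library labelled J01-S 10 HAT replicate 2 is also partly off its line but was kept when the libraries in doubt were left out. It held the highest J01-S value at 10 HAT of each ELIP1 transcript. Some plants flowered early and RNA was extracted in batches; which libraries these were is not given in the sources used here, and their part in the results was not tested.

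On genome assembly version 2, Bs.00g421070 lies on chromosome 5 from 116500183 to 116501218, on the minus strand, with 2 coding exons of 222 and 345 bases. Bs.00g420960 lies on the same strand from 116390254 to 116396997, with 4 coding exons of 304, 289, 190 and 345 bases. Bs.00g268300 lies on chromosome 7 from 40848063 to 40852200, on the plus strand, with 4 coding exons of 74, 34, 174 and 345 bases. The coding lengths are thus 567, 1128 and 627 bases, and all 3 models end in a coding exon of 345 bases, a length found at the end of 108 of the transcripts with a value, or 0.237%. The chromosome 5 loci are 103185 bases apart with 10 other gene models between them. Reads were aligned to coding sequences, and how reads that match both members of the pair were assigned cannot be read from the normalized counts, so the separate levels of the pair are uncertain.

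**Figure D1:**
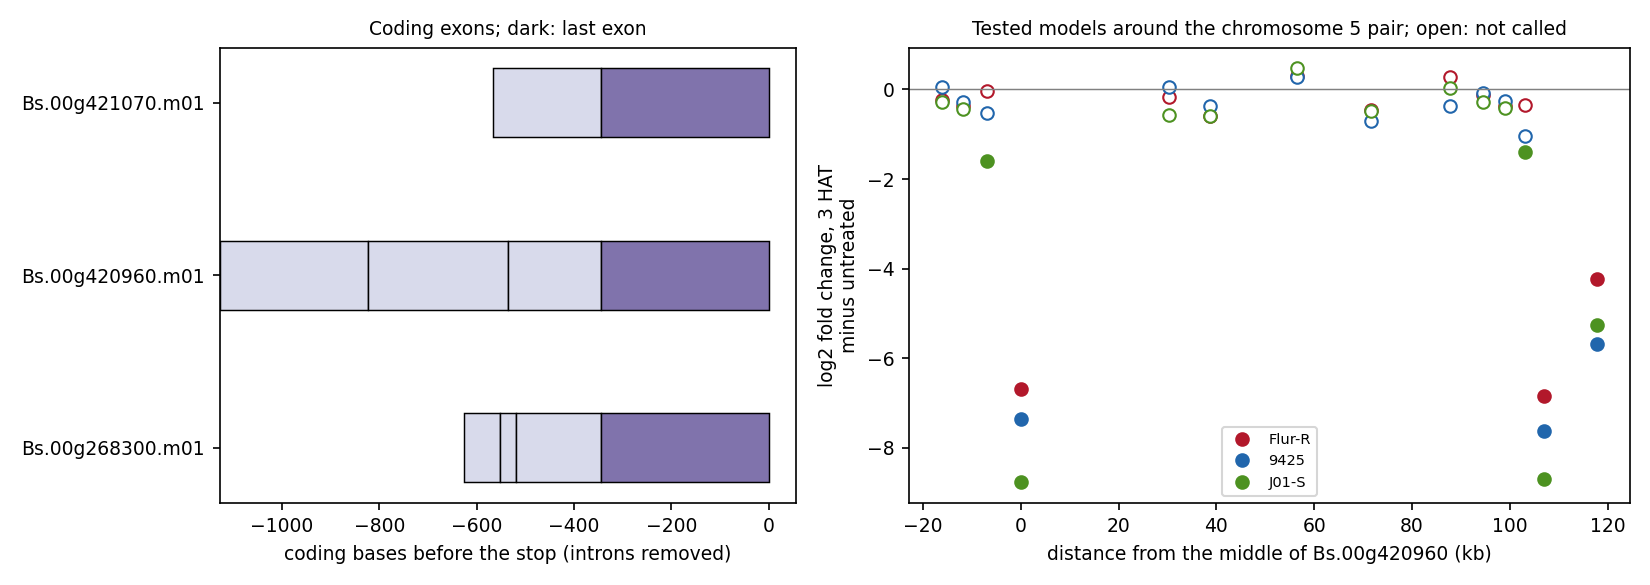
Left: coding exons of the 3 ELIP1 models, introns removed, in bases before the stop, with the last exon dark; it is 345 bases in each. Right: log2 fold change at 3 HAT against untreated (y) of the tested gene models around the chromosome 5 pair by distance in kb (x), coloured by line, open where not called; the pair and the next tested model beyond it are the lowest points.

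Before treatment the chromosome 5 pair was abundant in every line and varied widely among Flur-R plants. Bs.00g421070.m01 had normalized counts of 369, 879 and 5055 in untreated Flur-R plants 2, 3 and 4. It had 2991, 1623 and 1140 in 9425 plants 1, 2 and 3, and 4292 and 3025 in J01-S plants 1 and 4. Flur-R held both the lowest and the highest of these 8 values, so its libraries overlapped those of both susceptible lines. Bs.00g420960.m01 had 336, 737 and 4066 in the Flur-R plants, 2580, 1252 and 839 in the 9425 plants and 3268 and 2341 in the J01-S plants. The order of plants was the same for both members of the pair in every line.

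The chromosome 7 copy was less abundant and its plants were spread even further apart in Flur-R. Bs.00g268300.m01 had 12, 46 and 460 in Flur-R plants 2, 3 and 4, 874, 824 and 475 in 9425 plants 1, 2 and 3, and 452 and 164 in J01-S plants 1 and 4. All 9425 values lay above all Flur-R and J01-S values, while Flur-R and J01-S overlapped. Plant 4 was the highest Flur-R plant for all 3 transcripts.

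Levels of different transcripts were compared per kb of coding length. Per kb, untreated Bs.00g421070.m01 had a mean of 3705 ± 4534 (SD, n = 3) normalized counts in Flur-R, 3383 ± 1693 (n = 3) in line 9425 and 6452 ± 1580 (n = 2) in J01-S. Bs.00g420960.m01 had 1519 ± 1815 in Flur-R, 1380 ± 806 in line 9425 and 2486 ± 581 in J01-S. The chromosome 7 copy had 275 ± 398 in Flur-R, 1155 ± 347 in line 9425 and 491 ± 325 in J01-S. Bs.00g421070.m01 thus stood highest per kb in every line, with the chromosome 7 copy closest to the pair in line 9425. The order within the pair is uncertain, since it rests largely on model coding lengths of 567 and 1128 bases and reads may be shared. Without division by length, the log2 ratio of Bs.00g421070.m01 to Bs.00g420960.m01 averaged 0.31 over the untreated libraries.

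A difference was called where limma gave a log2 change larger than 0.5 in either direction with a Benjamini-Hochberg adjusted p below 0.05. Of the 9 comparisons of lines before treatment (3 transcripts by 3 pairs of lines), 0 were called, and 1 had an unadjusted p under 0.05. Among all 29165 transcripts tested, 3.28% were called between Flur-R and 9425, 2.04% between Flur-R and J01-S, and 2.45% between the susceptible lines. The comparison with the low unadjusted p was the chromosome 7 copy in Flur-R against 9425, with a log2 difference of -3.42 (SE 1.13, 95% interval -5.77 to -1.07, limma, Benjamini-Hochberg adjusted p = 0.108). Without Flur-R untreated replicate 4 it was -4.82 with an adjusted p of 0.0244 (limma), and with 8 rather than 1 added before the logarithm the adjusted p was 0.0369. For Bs.00g421070.m01 the log2 difference was -0.58 (-2.84 to 1.67) against 9425 and -1.61 (-4.13 to 0.91) against J01-S, intervals that leave room for differences of several fold in either direction against 9425. Without Flur-R untreated replicate 2 the difference against 9425 turned to 0.25, and that of Bs.00g420960.m01 from -0.48 to 0.31.

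At 3 HAT the chromosome 5 pair had nearly disappeared from every line. Bs.00g421070.m01 had 5, 6 and 25 in Flur-R plants 2, 3 and 4, 6, 7 and 12 in 9425 plants 2, 3 and 4, and 4 and 14 in J01-S plants 1 and 4. Bs.00g420960.m01 had 5, 5 and 25 in the Flur-R plants, 6, 7 and 10 in the 9425 plants and 4 and 7 in the J01-S plants. All 3 HAT values of the pair were below all untreated values of the same line. Flur-R plant 4, the highest plant before treatment, was again the highest at 3 HAT, although its own value was far below any untreated one.

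The means of Bs.00g421070.m01 fell from 2101 ± 2571 (SD, n = 3) to 12 ± 11.3 (n = 3) in Flur-R, from 1918 ± 960 (n = 3) to 8.33 ± 3.21 (n = 3) in line 9425, and from 3658 ± 896 (n = 2) to 9.0 ± 7.07 (n = 2) in J01-S. These are means 175-fold, 230-fold and 406-fold lower. On the log2 scale of the test the fall was -6.84 (SE 1.08, limma, Benjamini-Hochberg adjusted p = 0.000302) in Flur-R, -7.62 (SE 1.08, adjusted p = 0.000193) in line 9425 and -8.70 (SE 1.33, adjusted p = 0.000345) in J01-S. Bs.00g420960.m01 fell by 147-fold, 203-fold and 510-fold in its means, with log2 changes of -6.68, -7.36 and -8.77 (limma, Benjamini-Hochberg adjusted p = 0.000314, 0.000225 and 0.000297). These falls are the ones for which the pair was tabulated. The calls at 3 HAT held under every alternative run and with each of the 27 libraries left out in turn.

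The chromosome 7 copy went the same way in line 9425 but not by as much in the other lines. It had 13, 68 and 25 in Flur-R plants 2, 3 and 4, 15, 0 and 1 in 9425 plants 2, 3 and 4, and 25 and 45 in J01-S plants 1 and 4. The 3 HAT values lay below the untreated ones without overlap in line 9425 and J01-S, while in Flur-R only plant 4 was much lower than before, and plants 2 and 3 stood at 13 and 68 after 12 and 46. The group means were 136-fold lower in line 9425, 8.8-fold lower in J01-S and 4.89-fold lower in Flur-R. The log2 change was -7.79 (SE 1.13, limma, Benjamini-Hochberg adjusted p = 0.000232) in 9425, the fall for which it was tabulated. It was -2.98 (SE 1.38, adjusted p = 0.23) in J01-S and -1.16 (SE 1.13, adjusted p = 0.709) in Flur-R, neither called. Without Flur-R untreated replicate 4 the Flur-R change was 0.24.

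In all, 7 of the 9 comparisons at 3 HAT were called lower, where the share of all transcripts called lower was 4% in Flur-R, 3.33% in line 9425 and 3.28% in J01-S. The share called lower in all 3 lines was 1.57%, or 457 transcripts, and both members of the chromosome 5 pair were among them. The 7 called comparisons are the same 7 for which the transcripts were tabulated, so these counts follow from the choice and nothing is read from them.

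**Figure D2:**
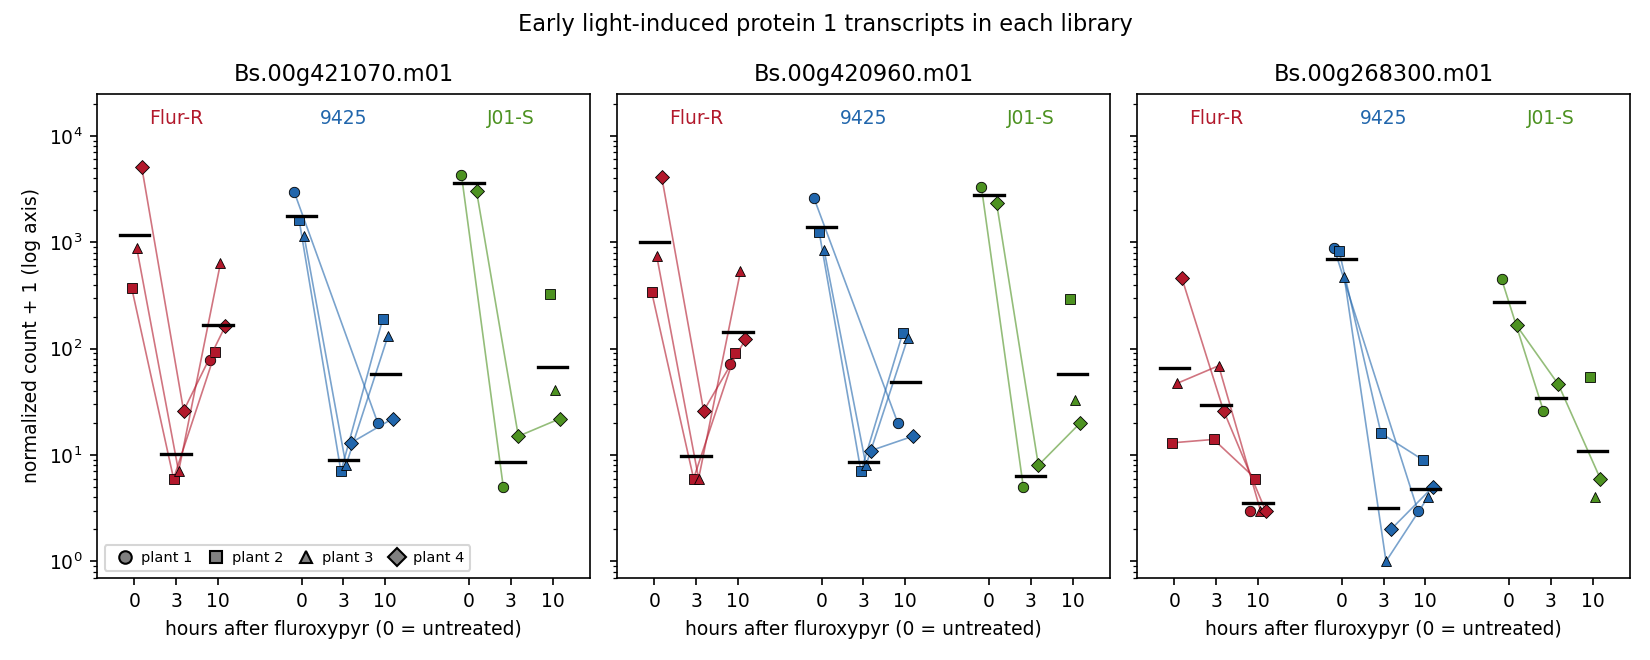
Normalized count plus 1 of each ELIP1 transcript (y, log axis) by hours after fluroxypyr (x) in each line; symbols are plants, thin lines join libraries of the same plant and bars are geometric means. The chromosome 5 pair falls from 336 or more to 25 or less and returns in part by 10 HAT, while the chromosome 7 copy does not return.

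At 10 HAT the chromosome 5 pair had come back in part, by very different amounts in different plants. Bs.00g421070.m01 had 77, 92, 632 and 163 in Flur-R plants 1 to 4, 19, 190, 129 and 21 in 9425 plants 1 to 4, and 325, 40 and 21 in J01-S plants 2, 3 and 4. In every line all 10 HAT values were above all 3 HAT values, and they reached into the untreated range only in Flur-R, where plant 3 at 632 exceeded the untreated 369 of plant 2. Bs.00g420960.m01 had 71, 90, 532 and 121 in the Flur-R plants, 19, 140, 125 and 14 in the 9425 plants and 292, 32 and 19 in the J01-S plants. The lowest libraries, at 21 or less for both members of the pair, were 9425 plants 1 and 4 and J01-S plant 4. The libraries labelled 9425 replicate 3 and J01-S replicate 3, whose line is in doubt, were at neither end of their groups.

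The 10 HAT mean of Bs.00g421070.m01 was 241 ± 263 (SD, n = 4) in Flur-R, 89.8 ± 84.3 (n = 4) in line 9425 and 129 ± 170 (n = 3) in J01-S, or 11.5%, 4.68% and 3.52% of the respective untreated means. For Bs.00g420960.m01 the 10 HAT means were 11.9%, 4.78% and 4.08% of the untreated ones. The rise from 3 to 10 HAT starts from the same 3 HAT libraries whose low values brought the pair in, and it was called in Flur-R alone, at a log2 change of 4.01 (limma, Benjamini-Hochberg adjusted p = 0.0203) for Bs.00g421070.m01 and 3.88 (adjusted p = 0.0222) for Bs.00g420960.m01. In 9425 the changes were 2.68 (adjusted p = 0.111) and 2.50 (adjusted p = 0.132), while in J01-S they were 2.94 (adjusted p = 0.134) and 3.19 (adjusted p = 0.0947). Thus 2 of the 9 comparisons were called higher, where 1.1% of all transcripts were in Flur-R, 3.14% in line 9425 and 4.81% in J01-S. Among transcripts called lower at 3 HAT, those shares were 4.45%, 3.29% and 12.8%. With the plant as a random effect, a replicate block, 4 were called, with the pair in line 9425 added, at 2.74 and 2.52 (limma, adjusted p = 0.0305 and 0.0432), while with the plant as a fixed effect 2 were called. Both calls in line 9425 were lost when the libraries in doubt were also left out of the random-effect fit, a replicate block chosen after the data were seen, at 2.23 and 1.92 (limma, adjusted p = 0.121 and 0.172).

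The calls in Flur-R rested on few libraries. Without Flur-R 3 HAT replicate 2, Flur-R 3 HAT replicate 3 or Flur-R 10 HAT replicate 3, 0 rises were called, at log2 changes for Bs.00g421070.m01 of 3.62, 3.73 and 3.36 (limma, Benjamini-Hochberg adjusted p = 0.0978, 0.0939 and 0.0721). The corresponding values for Bs.00g420960.m01 were 3.52, 3.52 and 3.25 (adjusted p = 0.102, 0.108 and 0.0789). Without the 9425 and J01-S libraries in doubt, Bs.00g421070.m01 rose by a log2 change of 4.01 in Flur-R (adjusted p = 0.0221), and its change was 2.28 (adjusted p = 0.285) in line 9425 and 3.29 (adjusted p = 0.16) in J01-S. For Bs.00g420960.m01 the changes without them were 2.03 (adjusted p = 0.332) in line 9425 and 3.60 (adjusted p = 0.112) in J01-S. These J01-S values still include J01-S 10 HAT replicate 2, the highest of its group. With each library left out in turn, the J01-S rise of Bs.00g421070.m01 ranged from 1.79 to 3.74 (limma, adjusted p from 0.0685 to 0.564).

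Against untreated, the pair was still lower at 10 HAT in the susceptible lines, in a comparison that shares its untreated libraries with that at 3 HAT. Bs.00g421070.m01 was at -4.94 (limma, Benjamini-Hochberg adjusted p = 0.00096) in line 9425 and -5.76 (adjusted p = 0.00233) in J01-S, and without the libraries in doubt at -5.34 (adjusted p = 0.00149) and -5.41 (adjusted p = 0.0107). Bs.00g420960.m01 was at -4.86 (adjusted p = 0.000944) and -5.58 (adjusted p = 0.00259), and without those libraries at -5.32 (adjusted p = 0.00113) and -5.18 (adjusted p = 0.0113). In Flur-R the log2 changes of -2.83 and -2.80 were not called (limma, Benjamini-Hochberg adjusted p = 0.0561 and 0.0539). Without Flur-R untreated replicate 2 they were -3.67 and -3.59 (adjusted p = 0.0279 and 0.0292), without Flur-R 10 HAT replicate 3 they were -3.48 and -3.44 (adjusted p = 0.0228 and 0.0221), and with the plant as a random effect, a replicate block, -2.68 and -2.67 (adjusted p = 0.0263 and 0.0251). Over all left-out libraries the value of Bs.00g421070.m01 in Flur-R ranged from -3.67 to -1.78 and the adjusted p from 0.0228 to 0.34.

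The chromosome 7 copy stayed low or fell further. It had 2, 5, 2 and 2 in Flur-R plants 1 to 4, 2, 8, 3 and 4 in 9425 plants 1 to 4, and 53, 3 and 5 in J01-S plants 2, 3 and 4. In Flur-R all 10 HAT values were below all 3 HAT values, whereas in line 9425 and J01-S the times overlapped. J01-S plant 2, which was also the highest J01-S plant at 10 HAT for the chromosome 5 pair, was the only library above 8. The 10 HAT means were 2.75 ± 1.5 (SD, n = 4), 4.25 ± 2.63 (n = 4) and 20.3 ± 28.3 (n = 3) in Flur-R, 9425 and J01-S, or 1.59%, 0.587% and 6.6% of untreated.

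Against untreated the chromosome 7 copy was called lower in all 3 lines, at a log2 change of -4.20 (limma, Benjamini-Hochberg adjusted p = 0.00685) in Flur-R, -7.18 (adjusted p = 3.33e-05) in line 9425 and -4.65 (adjusted p = 0.0147) in J01-S. The Flur-R call was lost without Flur-R untreated replicate 4 (-2.79, adjusted p = 0.0798). The J01-S call was lost without J01-S untreated replicate 1 (-3.92, adjusted p = 0.173), without J01-S 10 HAT replicate 3 (-3.92, adjusted p = 0.0656), without both libraries in doubt (-3.92, adjusted p = 0.0683) and with the plant as a fixed effect, a replicate block (-5.35, adjusted p = 0.0634). In line 9425, where this fall was itself tabulated, it was -7.09 (adjusted p = 0.000153) without the libraries in doubt. From 3 to 10 HAT its log2 change was -3.04 (adjusted p = 0.112) in Flur-R, 0.60 (adjusted p = 0.812) in line 9425 and -1.67 (adjusted p = 0.465) in J01-S, and the 9425 value turned to -0.23 without 9425 3 HAT replicate 3, which is listed at 0. Without the libraries in doubt the 3 to 10 HAT changes were 0.69 (adjusted p = 0.854) in line 9425 and -0.94 (adjusted p = 0.788) in J01-S. With the plant as a random effect, a replicate block, the Flur-R change of -3.0 was called (limma, adjusted p = 0.0351). Across the 3 transcripts, 7 of the 9 comparisons at 10 HAT were called lower, where the share of all transcripts called lower was 10.4% in Flur-R, 12.4% in line 9425 and 8.78% in J01-S. Without the libraries in doubt 6 were called. Of the transcripts called lower at 3 HAT, 82.6%, 83.7% and 70.4% were also called lower at 10 HAT in these lines. The untreated libraries are shared with the comparisons that brought the members in, so nothing is read from the count.

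Since the same plants were sampled repeatedly, the changes can be followed within plants. Of the 7 plants with an untreated and a 3 HAT library, Bs.00g421070.m01 was lower at 3 HAT in 7, by log2 changes of -9.75 to -5.95 (median -7.60). In the 7 plants with 3 and 10 HAT libraries it was higher at 10 HAT in 7, by 0.55 to 6.50 (median 3.95), and in the 7 with untreated and 10 HAT libraries it was still lower at 10 HAT in 7, by -7.22 to -0.48. The sets of plants differ, because not every plant has all 3 libraries. The 10 HAT library of 9425 plant 3 is one of those whose line is in doubt, so it may not be the same plant. Without it Bs.00g421070.m01 was higher at 10 than at 3 HAT in 6 of 6 plants (median 3.30) and lower than untreated in 6 of 6 (median -4.02).

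Flur-R plant 3 came closest to its own starting level, from 879 to 6 and then 632 for Bs.00g421070.m01, a log2 change of -0.48 from untreated. Flur-R plant 4 went from 5055 to 25 and then 163, and Flur-R plant 2 from 369 to 5 and then 92. At the other end, 9425 plant 4 rose only from 12 to 21 and J01-S plant 4 from 14 to 21, and 9425 plant 1 was at 19 after 2991 untreated. In Flur-R these within-plant changes were spread more widely for the return than for the fall, a difference that was not tested.

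The chromosome 7 copy followed its own course in the same plants. It was lower at 3 HAT in 5 of 7 plants, the exceptions being Flur-R plants 2 and 3 with log2 changes of 0.11 and 0.55, and lower than untreated at 10 HAT in 7 of 7. From 3 to 10 HAT it was lower in 5 of 7 plants and higher in 2, 9425 plants 3 and 4, which had stood at 0 and 1. Without 9425 plant 3, whose 10 HAT library is in doubt, it was lower in 5 of 6 plants and higher in 1, and below untreated at 10 HAT in 6 of 6. In Flur-R plant 3 the chromosome 7 copy dropped from 68 to 2 while Bs.00g421070.m01 rose from 6 to 632.

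The ratio of copies within a library, apart from the 1 added to each value, does not depend on how libraries were scaled. The log2 ratio of Bs.00g421070.m01 to Bs.00g268300.m01 averaged 4.17, -1.51 and 5.54 in untreated, 3 HAT and 10 HAT libraries of Flur-R. In J01-S it averaged 3.72, -2.0 and 2.61, and in line 9425 1.34, 1.5 and 3.58. At 3 HAT 9425 plant 2 was the only 9425 library with a ratio below 0. Per kb of coding length, the 3 HAT mean of the chromosome 7 copy was 56.4 against 21.2 for Bs.00g421070.m01 in Flur-R, 55.8 against 15.9 in J01-S and 8.51 against 14.7 in line 9425.

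**Figure D3:**
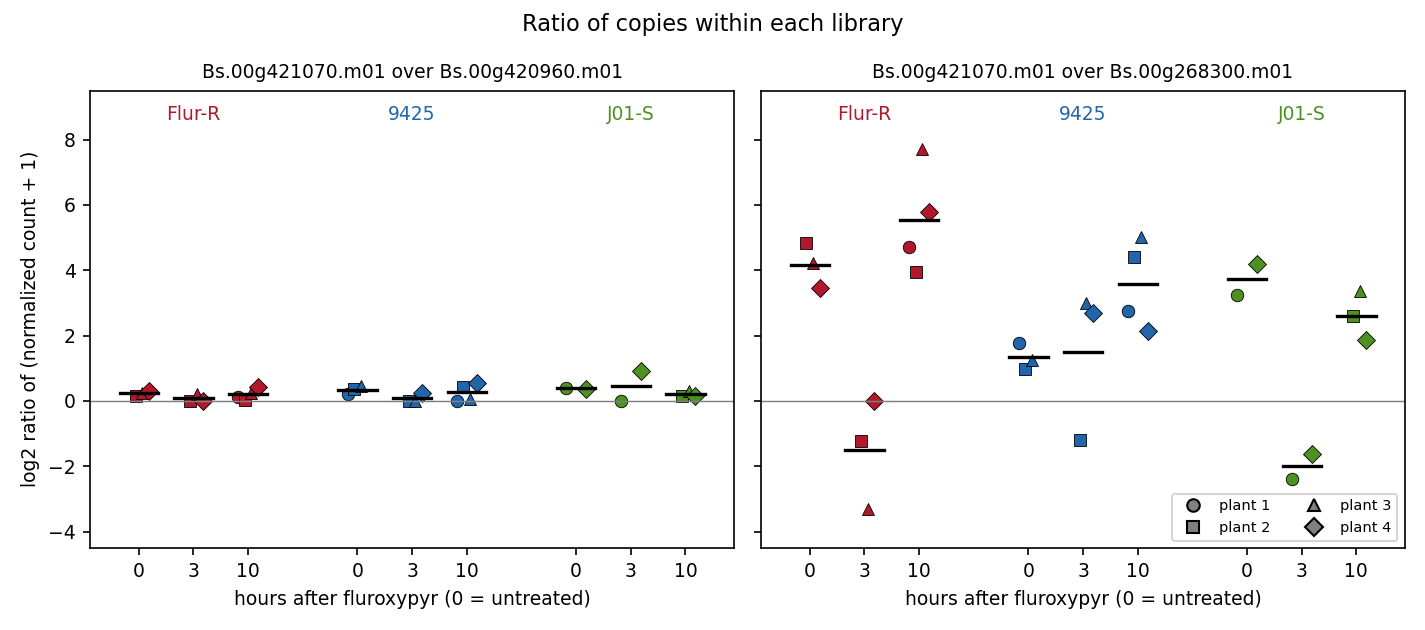
Log2 ratio of normalized counts plus 1 within each library (y) by hours after fluroxypyr (x) in each line, for the chromosome 5 pair (left) and for Bs.00g421070.m01 over the chromosome 7 copy (right); symbols are plants and bars are means. The left ratio stays close to 0 at all times, and the right one dips at 3 HAT outside line 9425.

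The pair was chosen for its fall at 3 HAT in every line. The chromosome 7 copy was chosen for its falls at 3 and 10 HAT in line 9425 alone. The choice of members thus bears on how their ratio moves to 3 HAT and from 3 to 10 HAT. Over the lines, this ratio changed by -3.74 from untreated to 3 HAT (exact permutation test of times within lines, two-sided, p = 0.01, Benjamini-Hochberg adjusted over 9 tests 0.0281) and by 4.57 from 3 to 10 HAT (exact permutation p = 0.000408, adjusted 0.00184). From untreated to 10 HAT it changed by 0.83 (exact permutation, adjusted p = 0.243). The ratio of Bs.00g420960.m01 to the chromosome 7 copy changed by -3.63 (exact permutation, adjusted p = 0.0281), 4.56 (adjusted p = 0.00184) and 0.93 (adjusted p = 0.222) for the same times. So 4 of the 9 ratio tests had an adjusted p under 0.05. They use values for which the members were chosen and are no independent evidence. Within plants, a replicate block, 0 did, at changes of -4.13 and 4.65 for the first ratio and -3.96 and 4.57 for the second (exact sign-flip test, 7 plants, adjusted p = 0.0938, 0.0938, 0.105 and 0.0938). That test cannot give an unadjusted p under 0.0156. It includes 9425 plant 3, and without its 10 HAT library 0 tests passed either, with 3 to 10 HAT changes of 5.08 and 5.01 in 6 plants (exact sign-flip test, adjusted p = 0.141 for both). Without Flur-R untreated replicate 2 or 3, Flur-R 3 HAT replicate 3 or 9425 3 HAT replicate 2, only the 2 changes from 3 to 10 HAT had an adjusted p under 0.05. Without the 10 HAT libraries in doubt the count was 4, and the first ratio changed by 4.29 and the second by 4.26 from 3 to 10 HAT (exact permutation, adjusted p = 0.00643 for both).

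The 2 members of the chromosome 5 pair could not be told apart by their course. Their log2 ratio changed by -0.12 from untreated to 3 HAT, -0.10 to 10 HAT and 0.02 from 3 to 10 HAT (exact permutation, adjusted p = 0.562, 0.243 and 0.906). Across the 27 libraries their log2 values correlated at a Pearson r of 0.998, closer than either was to any other transcript tested. With the chromosome 7 copy Bs.00g421070.m01 correlated at 0.639 (0.648 without the 2 libraries in doubt), and 685 other transcripts were closer to it. These libraries fall into 3 times, which all such correlations share, and reads shared by the pair would bring its members together, which was not tested.

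Differences between lines in the response itself were tested as interactions. For each of the 3 HAT response, the 10 HAT response and the change from 3 to 10 HAT, 0 of 9 comparisons were called in limma, with 2, 0 and 1 at an unadjusted p under 0.05. Such calls were rare among all transcripts: 0.0309% for the 3 HAT response of Flur-R against 9425 and 0% for both other pairs of lines, 0.0377%, 0.0103% and 0.00343% for the 10 HAT response (Flur-R against 9425, Flur-R against J01-S, and between the susceptible lines), and 0.182%, 0.0686% and 0% for the change from 3 to 10 HAT. The log2 fall of the chromosome 7 copy at 3 HAT was smaller in Flur-R than in line 9425 by 6.62 (SE 1.6, 95% interval 3.30 to 9.95, unadjusted p = 0.000468, limma, Benjamini-Hochberg adjusted p = 0.31). This transcript was tabulated for its 9425 fall, so the difference follows in part from the choice. With the plant as a random effect, a replicate block, it was 6.60 (limma, adjusted p = 0.0507), and with the libraries in doubt also left out, which was chosen after the data were seen, 6.59 (adjusted p = 0.0337). The other low unadjusted p was for 9425 minus J01-S, at -4.80 (adjusted p = 1).

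At 3 HAT itself, the chromosome 7 copy was higher in Flur-R than in line 9425 by a log2 difference of 3.21 (95% interval 0.86 to 5.56, limma, Benjamini-Hochberg adjusted p = 0.141) and different between line 9425 and J01-S by -3.45, with line 9425 the lower (adjusted p = 0.13). These were the 2 of 9 level comparisons at 3 HAT with an unadjusted p under 0.05, and 0 were called, where 3.1%, 3.06% and 3.23% of all transcripts were, for Flur-R against 9425, Flur-R against J01-S and between the susceptible lines. At 10 HAT, 0 of 9 were called and 0 had an unadjusted p under 0.05, with 4.43%, 2.23% and 0% of all transcripts called for the same pairs. The level of Bs.00g421070.m01 at 10 HAT in Flur-R differed by 1.53 (-0.43 to 3.48, adjusted p = 0.397) from 9425 and by 1.32 (-0.79 to 3.43, adjusted p = 0.559) from J01-S. Its 10 HAT response in Flur-R was less negative by 2.11 (-0.87 to 5.09, adjusted p = 0.822) than in line 9425 and by 2.93 (-0.36 to 6.21, adjusted p = 0.941) than in J01-S. Without the libraries in doubt the level differences were 1.92 (adjusted p = 0.292) and 0.97 (adjusted p = 0.748), and the response differences 2.50 (adjusted p = 0.844) and 2.58 (adjusted p = 0.999), with 0 comparisons called among any of these. With each library left out in turn, the level difference of Bs.00g421070.m01 between Flur-R and J01-S ranged from 0.52 to 2.46 (limma, adjusted p from 0.259 to 0.911). A fuller return in the resistant line was therefore not detectable with these plants, and the intervals do not exclude a difference of several fold.

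The light-harvesting and chlorophyll genes that the study describes were lowest at 10 HAT. The list of light harvesting and chlorophyll synthesis, drawn from the study's results on these same libraries, holds 7 transcripts: chlorophyll a/b-binding antenna proteins, photosystem subunits and magnesium chelatase subunit H, an enzyme subunit of chlorophyll synthesis. The study named each of them for a fall at 10 HAT. At 3 HAT 5, 2 and 2 of the 7 were called lower in Flur-R, 9425 and J01-S, with median log2 changes of -1.71, -1.32 and -1.73. At 10 HAT all 7 were called lower in each line, with medians of -4.70, -4.48 and -5.02, and from 3 to 10 HAT 7, 5 and 7 were called lower and 0 higher, where 4.34%, 5.06% and 4.88% of all transcripts were called lower. The chromosome 5 pair had its lowest values at 3 HAT and this list at 10 HAT, the times for which each was chosen. Their difference in timing thus follows at least in part from the choice, and nothing is read from it.

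The antenna transcript Bs.00g240870.m01 shows the course of the list. Its mean went from 389614 ± 6140 (SD, n = 3) to 118161 ± 31567 (n = 3) and 3606 ± 1138 (n = 4) in Flur-R. The log2 change from untreated was -1.76 at 3 HAT (limma, Benjamini-Hochberg adjusted p = 0.029) and -6.80 at 10 HAT (adjusted p = 3.81e-09). The chromosome 7 copy also had its lowest mean at 10 HAT in J01-S and Flur-R. In line 9425 its normalized counts averaged 5.33 at 3 HAT and 4.25 at 10 HAT, while the mean log2 value was lower at 3 HAT (1.67) than at 10 HAT (2.27).

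Chalcone synthase, which opens the flavonoid pathway to light-screening pigments, was also lower at 3 HAT. The transcripts of this paragraph were likewise tabulated for falls in these same libraries. Both tabulated chalcone synthase transcripts were called lower at 3 HAT in every line, and 2, 2 and 1 at 10 HAT in lines Flur-R, 9425 and J01-S. From 3 to 10 HAT 0 of 2 were called in either direction. Of all transcripts, 4%, 3.33% and 3.28% were called lower at 3 HAT and 10.4%, 12.4% and 8.78% at 10 HAT in these lines. The calls follow at least in part from the choice, and nothing is read from the counts. Bs.00g518390.m01 went from 744 ± 355 (SD, n = 3) to 71.3 ± 30.6 (n = 3) and 48.5 ± 26.4 (n = 4) in Flur-R. Carotenoid cleavage dioxygenase 4, which breaks down carotenoids, was called lower at 3 HAT in every line by log2 changes of -3.74, -2.37 and -2.95, and lower still at 10 HAT by -5.22, -3.65 and -4.18 from untreated.

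Some genes tied to the daily clock and light signalling were higher after treatment. Early flowering 4, a component of the evening complex of the Arabidopsis clock, and 2 transcripts of cold regulated protein 27, a clock-regulated repressor of light signalling in Arabidopsis, were called higher at both times in every line, where 4.77%, 3.95% and 4.24% of all transcripts were called higher at 3 HAT and 7.64%, 11.3% and 6.96% at 10 HAT in lines Flur-R, 9425 and J01-S. The study tabulated them for rises at 10 HAT, early flowering 4 in line 9425 and cold regulated protein 27 in every line. Those calls follow at least in part from the choice, and nothing is read from the counts. Early flowering 4 went from 62.3 ± 50.3 (SD, n = 3) to 566 ± 60.7 (n = 3) and 1674 ± 472 (n = 4) in Flur-R, from 60.3 to 937 and 2663 in line 9425 and from 38.0 to 618 and 1877 in J01-S. Whether the ELIP1 fall and return follow the hour, the herbicide, the age of the plants or their earlier sampling was not tested, because the design confounds them.

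**Figure D4:**
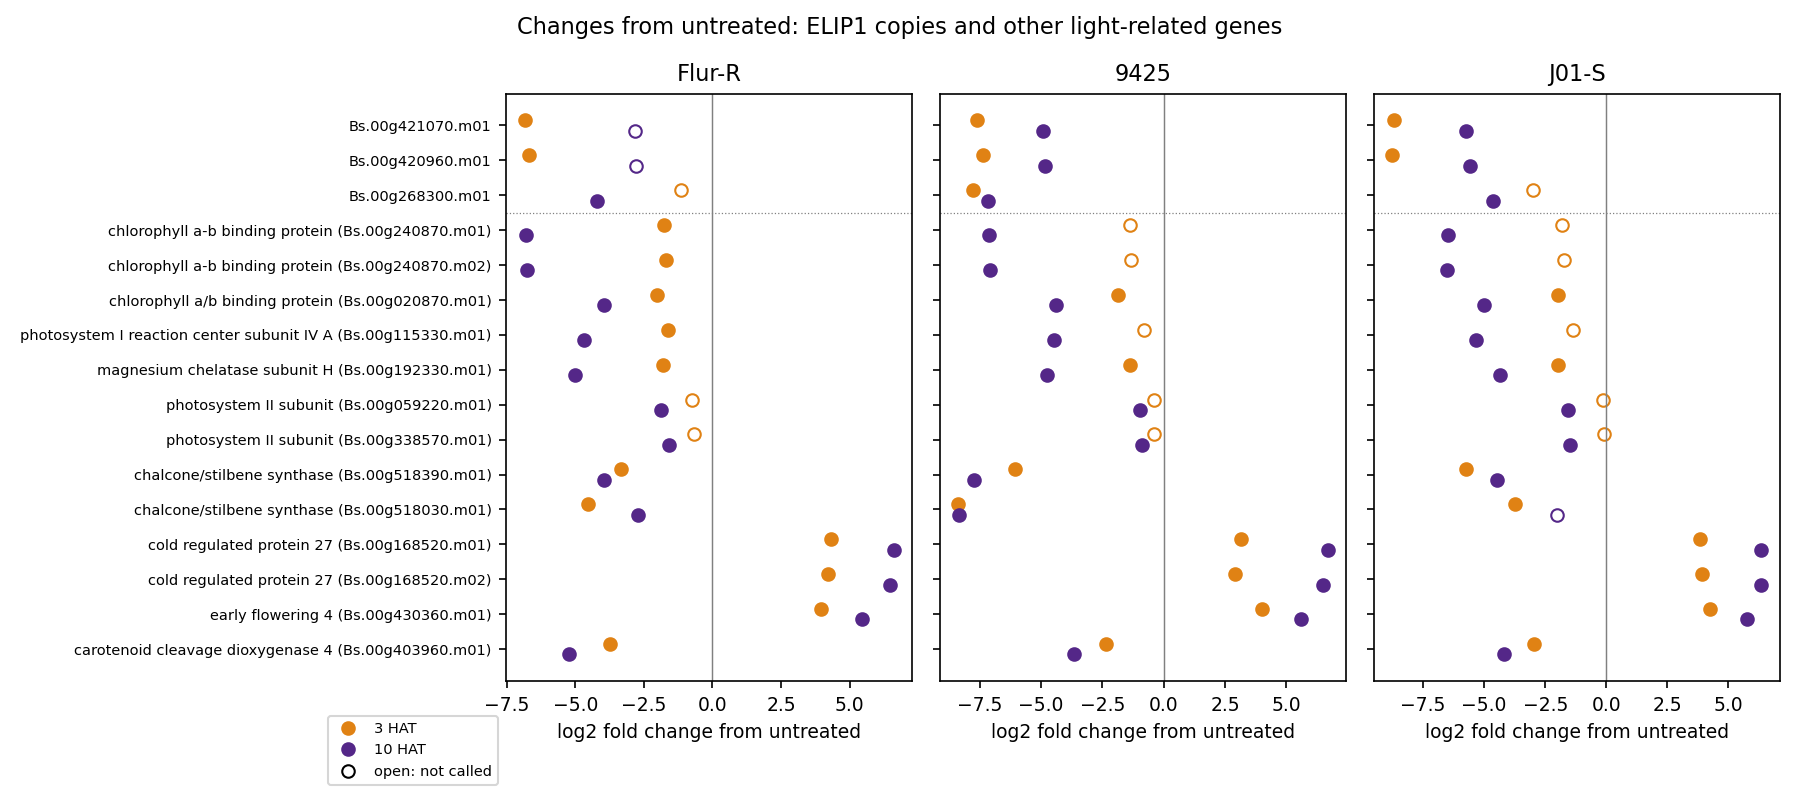
Log2 fold change from untreated (x) of the 3 ELIP1 transcripts and of the other light-related transcripts that the study describes (y), in each line; orange is 3 HAT, purple 10 HAT, and open points were not called. For the chromosome 5 pair the 3 HAT change is the larger, and for all 7 light-harvesting and chlorophyll transcripts the 10 HAT change is. These are the times of the falls for which they were chosen.

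Few of the tested gene models between and before the chromosome 5 pair were called lower at 3 HAT. Of the 10 models between the loci, 8 were tested, and 0, 0 and 1 were called lower at 3 HAT in lines Flur-R, 9425 and J01-S. Of the 3 models before the pair, all tested, 0, 0 and 1 were called lower. Among all transcripts 4%, 3.33% and 3.28% were called lower in these lines, so such small counts are near that share and nothing is read from them.

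Of the 3 models after the pair only 1 was tested, Bs.00g421090.m01, picked out here after its values were seen. It lies 9626 bases beyond Bs.00g421070 at 116510845 to 116512083, on the same strand, and has no description in the sources used here. It had 5, 18 and 117 in untreated Flur-R plants 2, 3 and 4, then 1, 0 and 0 at 3 HAT, and 5, 18, 50 and 14 in plants 1 to 4 at 10 HAT. It had 33, 75 and 52 in untreated 9425 plants, was listed at 0 in all 3 at 3 HAT, and had 0, 0, 23 and 4 at 10 HAT. In J01-S it had 282 and 132, then 1 and 12, then 40, 13 and 8. The 3 HAT values lay below all untreated values of the same line, and plant 4 was again the highest untreated Flur-R plant and plant 3 the highest at 10 HAT.

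Bs.00g421090.m01 was called lower at 3 HAT in each line, with log2 changes of -4.24, -5.69 and -5.25 (limma, Benjamini-Hochberg adjusted p = 0.0205, 0.0033 and 0.0227), and higher at 10 than at 3 HAT in Flur-R at 3.77 (adjusted p = 0.0386). Its log2 values correlated with those of Bs.00g421070.m01 at a Pearson r of 0.85 over the 27 libraries. The change in line 9425 is against libraries all listed at 0 and depends on the number added before the logarithm, so it is no bound. Around the chromosome 7 copy, 6 transcripts of neighbouring models were tested in limma. At 3 HAT 0 were called lower in any line, where 4%, 3.33% and 3.28% of all transcripts were. In each line 2 of them, both isoforms of Bs.00g268320, were lower at 3 HAT at an unadjusted p under 0.05. At 10 HAT these 2 were called lower in Flur-R and line 9425, where 10.4% and 12.4% of all transcripts were. In J01-S they were not called at 10 HAT but were lower at an unadjusted p under 0.05.

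Ranked by Pearson correlation over the 27 libraries, the transcript of another locus closest to Bs.00g421070.m01 was Bs.00g172200.m01 on chromosome 1 (r = 0.905), which was also closest to Bs.00g420960.m01 (r = 0.91). Its mean was 284, 127 and 144 in Flur-R untreated, at 3 HAT and at 10 HAT, a much smaller swing of the same shape, and it was called lower at both times in all 3 lines. For the chromosome 7 copy the closest was Bs.00g321110.m01 on chromosome 9 (r = 0.884), at 293, 78.0 and 57.2 in Flur-R. The next 4 in each list had r of 0.861 to 0.895. The sources used here give no function for these transcripts.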

How the data were processed

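RNA-seq values of 27 kochia libraries in 9 groups of line and time, as labelled, were used. The authors used HISAT2 (2.1.0 in the submitters' processing notes) against the coding sequences of genome assembly version 2, counted reads for each transcript, and applied the DESeq normalization. The deposited numbers are handled as scores, since the authors' normalized counts were rounded to whole numbers, from which read counts and their precision cannot be recovered. Count models were therefore not run, and the depth behind each value is unknown. Values plus 1 were taken to log2 and the 9 group means compared with limma 3.58.1 (R 4.3.3) using the trended prior variance. Fold changes on this scale understate changes of low values. The test covered the 29165 of 45517 transcripts that reached 10 in 2 or more libraries, leaving out 16352, p-values were adjusted by Benjamini-Hochberg within each comparison, and calls needed an adjusted p under 0.05 and a log2 change over 0.5 in size. Copy ratios were compared by exact permutation of times within lines. Both procedures were tested on simulated data.

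Genes named are the 3 ELIP1 transcripts, their neighbouring gene models (3 on each side and those between the pair), the 5 transcripts of other loci closest to each by correlation, and light-related genes described in the study's tables. The members and lists were chosen with earlier results of these data known. Libraries of a line are paired by plant because the same plants were sampled, and deviations from group means correlated between libraries of the same plant at a median of 0.722, 0.46 and 0.607 in Flur-R, 9425 and J01-S against -0.275, -0.158 and -0.222 for different plants. Deviations cancel out within a small group, so the negative values for different plants are no independent baseline. The lowest same-plant value was 0.063, in line 9425. Alternatives were 0.5 or 8 added, no filter or a filter at 50, rescaling by the trimmed mean of M values, no variance trend, only the groups compared, isoforms summed by locus, the chromosome 5 pair summed, the plant as a fixed or random effect, the libraries in doubt left out, and each library left out. Leaving out the libraries in doubt together with the plant block was added after the data were seen. Gene sequences were not used here.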

Additional observations from a re-analysis of the deposited data

Results flagged for a closer look

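In each of the 6 groups of 4 libraries (3 transcripts in Flur-R and 9425 at 10 HAT), the gap between the highest or lowest library and its nearest neighbour was compared with Dixon's 95% critical value of 0.829 of the group's range. Chance passes this value in about 1 of 20 groups of normally distributed values. The comparison used the rounded normalized counts and not their log2 values, so that rate may not hold here. In Flur-R at 10 HAT, replicate 3 stood above the other 3 plants for both members of the chromosome 5 pair, at 632 for Bs.00g421070.m01 (0.845 of the range) and 532 for Bs.00g420960.m01 (0.892), which count as 1 observation if the pair shares reads. In log2 values it stood at 9.31 against 6.29 to 7.36 for Bs.00g421070.m01, and at 9.06 against 6.17 to 6.93 for Bs.00g420960.m01. The flag depends on the scale, and the gap was not compared on the log2 scale. For the chromosome 7 copy, Flur-R 10 HAT replicate 2 stood at 5 where the other 3 were at 2, a gap of 1.0 of a range of very low values.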

How the results depend on the processing

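The counts of falls called at 3 HAT were 7 in all alternatives and left-out libraries, and those at 10 HAT ranged from 5 to 9 around 7. Rises from 3 to 10 HAT numbered 2, and 4 with the plant as a random effect, a replicate block; over left-out libraries they ranged from 0 to 2. Line differences of the 3 HAT response numbered 0, and 1 with the plant as a random effect and both libraries in doubt left out, a replicate block chosen after the data were seen, where the rises numbered 2. Line differences before treatment numbered 0, and 1 with 8 added or without Flur-R untreated replicate 4, so from 0 to 1 over left-out libraries. The copy ratios that changed with time numbered 4, and 0 within plants, the replicate block, with or without the libraries in doubt; over left-out libraries they ranged from 2 to 5. With only the groups compared, the J01-S falls at 10 HAT of Bs.00g420960.m01 (adjusted p = 0.0536) and Bs.00g268300.m01 (adjusted p = 0.0976) were not called in limma. The Flur-R falls of the pair at 10 HAT were called with 8 added (adjusted p = 0.0376 and 0.0356) and with the filter at 50 (0.049 and 0.047).

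Signs turned for Flur-R minus 9425 untreated without Flur-R untreated replicate 2 (over left-out libraries -1.63 to 0.25 for Bs.00g421070.m01 and -1.48 to 0.31 for Bs.00g420960.m01), for Bs.00g268300.m01 in Flur-R at 3 HAT without Flur-R untreated replicate 4 (-2.33 to 0.24) and in 9425 from 3 to 10 HAT without 9425 3 HAT replicate 3 (-0.23 to 1.77), and for the 3 to 10 HAT change of Bs.00g420960.m01 in Flur-R minus J01-S without J01-S 10 HAT replicate 4 (-0.08 to 1.85). The copy ratios to Bs.00g268300.m01 from untreated to 10 HAT turned with 8 added (-0.16 and -0.036), and the ratio within the pair turned on leaving out 1 library (from 3 to 10 HAT -0.13 to 0.17, and from untreated to 3 HAT -0.27 to 0.034). Apart from the -0.27, without J01-S 3 HAT replicate 4 (exact permutation, adjusted p = 0.01), none of these values passed its threshold, and the cause was not tested. Of the values with 1 library left out, 1403 of 1431 for single transcripts and 229 of 243 for copy ratios kept their direction and side of the threshold; under the other alternatives 655 of 673 and 35 of 45 did. The replicate block changed no other call than those given. At 3 HAT most values were 25 or less, where counting error is large and a difference between lines in the depth of the fall is poorly resolved.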
